A study of Homo sapiens with 6 samples.

Results

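The genes described here are 9 genes of thyroid identity and thyroid hormone action: the transcription factor genes NKX2-1, PAX8, FOXE1, HHEX and GLIS3, the thyroglobulin gene TG, the thyrotropin receptor gene TSHR, and the thyroid hormone receptor genes THRA and THRB. They were taken by name from a table of 58884 gene identifiers, and all 9 were found in it. Levels are FPKM, fragments scaled by exon length and sequencing depth, so they can be compared between genes. Of the 9 genes, 6 reached 1 FPKM in at least 1 library, and TG, TSHR and FOXE1 did so in none.

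A thyroid follicular cell makes thyroid hormone on thyroglobulin, a large secreted protein that is iodinated and then broken down to release the hormone. NKX2-1, PAX8, FOXE1 and HHEX are transcription factors whose joint presence sets the follicular cell apart from other epithelia, and they drive TG, TSHR and the genes of hormone synthesis. GLIS3 is a zinc finger factor that, in mice, the thyroid needs to respond to thyrotropin. In the cells that receive the hormone, THRA and THRB encode nuclear receptors that bind DNA mostly as partners of retinoid X receptors, and so share that partner with the retinoic acid receptors. Loss of this gene set accompanies dedifferentiation of thyroid cancer, and anaplastic carcinoma is its least differentiated form.

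RNA sequencing was done on total RNA of 3 established human thyroid cancer cell lines, with 2 libraries per line. FTC-133, a follicular carcinoma line, and BHT-101, an anaplastic carcinoma line, were each transfected with an siRNA that targets CRABP2 (siCRABP2) or with a control siRNA (siControl). 8505C, a second anaplastic line, carried either a CRABP2 expression vector or an empty vector. CRABP2 is a cytosolic protein that hands retinoic acid to its nuclear receptors, and the comparison asks what lowering or raising it does to the cells. Each of the 6 conditions is 1 library, and differences within a line thus stand without replicates. The vector was used in 8505C alone, so line and means of transfection cannot be told apart there, and the labels do not say whether the vector cells were clones or pools.

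Recovered read totals ran from 22084110 to 27958622 per library. CRABP2 followed the labels. It was 0.170 FPKM (5 reads) in FTC-133 siCRABP2 and 8.94 FPKM (240 reads) in FTC-133 siControl, and 11.4 FPKM (276 reads) in BHT-101 siCRABP2 and 27.3 FPKM (826 reads) in BHT-101 siControl. The CRABP2 vector gave 38.0 FPKM (909 reads) in 8505C, against 0.607 FPKM (15 reads) for the empty vector. The knockdown in BHT-101 was thus partial.

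What remained of thyroid identity differed by line. FTC-133 held NKX2-1, PAX8, HHEX, GLIS3 and THRA above 1 FPKM in both libraries, with a trace of TSHR. 8505C held NKX2-1, HHEX and THRA at several FPKM, with little PAX8. BHT-101 had no NKX2-1 read and little PAX8, and its highest levels were those of THRA, HHEX and THRB. TG was absent or close to it in all 6 libraries. With CRABP2 knockdown or the CRABP2 vector no gene of the set passed 2-fold among those at 1 FPKM or more, and the largest difference was that of NKX2-1 in FTC-133.

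**Figure D1:**
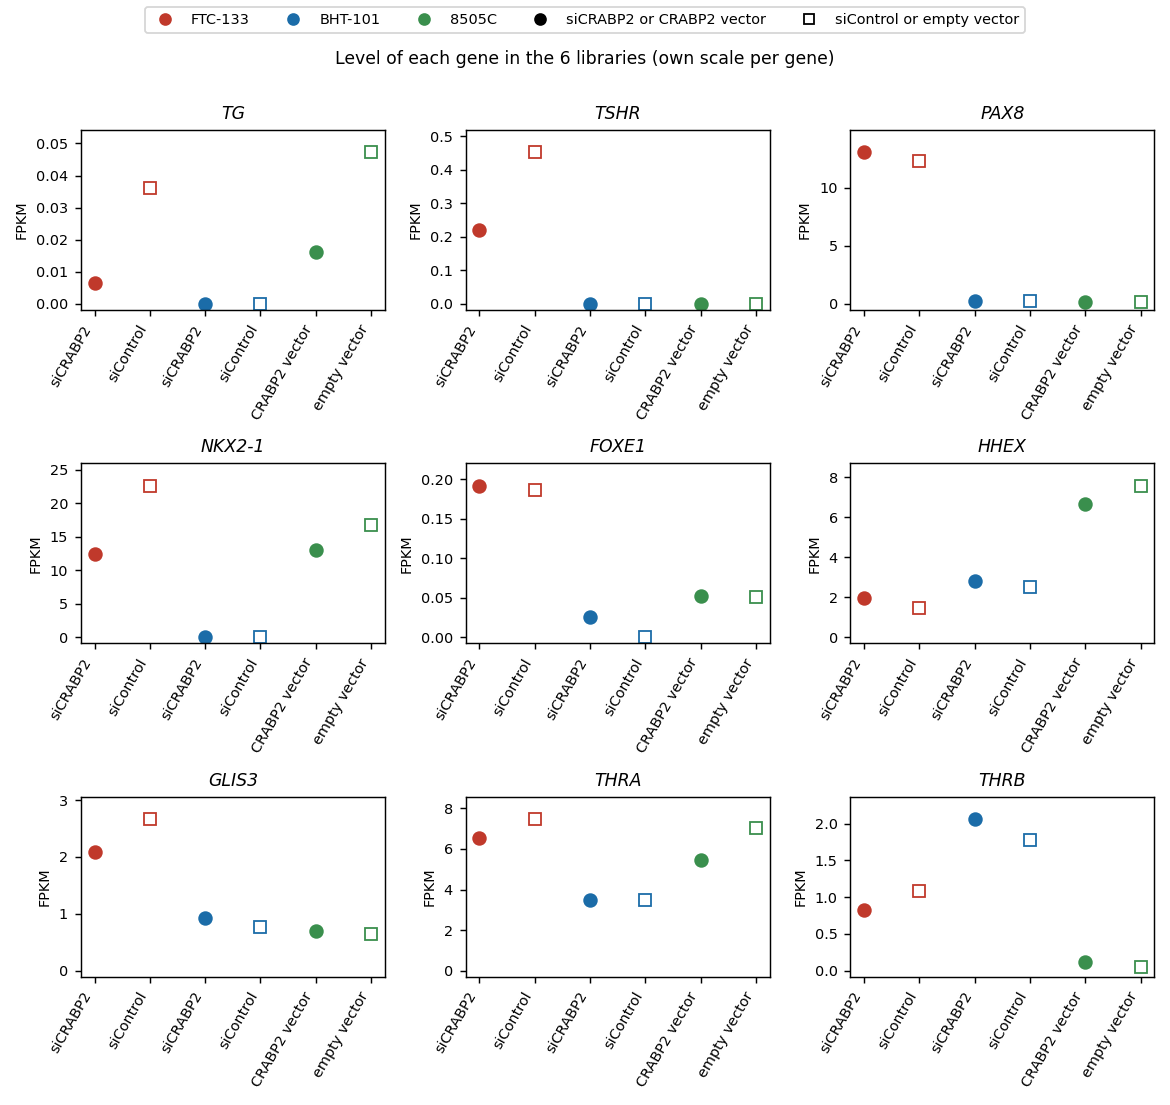
FPKM of the 9 genes in the 6 libraries, each gene on its own vertical scale, with filled circles for siCRABP2 or the CRABP2 vector, open squares for siControl or the empty vector, and colours for the line. PAX8 stands at 13.0 and 12.3 FPKM in FTC-133 and under 0.3 FPKM elsewhere, NKX2-1 is at 0 in BHT-101 only, and THRB is highest in BHT-101 and lowest in 8505C.

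NKX2-1 (ENSG00000136352, GRCh38 chromosome 14, 36516392 to 36521149, minus strand) encodes the homeobox factor of thyroid, lung and forebrain. It was 12.4 FPKM (1065 reads) in FTC-133 siCRABP2 and 22.6 FPKM (1775 reads) in FTC-133 siControl. 8505C had 13.1 FPKM (916 reads) with the CRABP2 vector and 16.7 FPKM (1208 reads) with the empty vector. Neither BHT-101 library had a read. The 4 libraries of FTC-133 and 8505C therefore lay apart from BHT-101, and within each of these lines the siControl or empty vector library was the higher. In these bulk samples, fewer cells with NKX2-1 and less NKX2-1 RNA per cell cannot be told apart.

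The depth-scaled log2 read ratio of NKX2-1 was -0.87 for siCRABP2 over siControl in FTC-133, with a 95% exact counting interval of -0.98 to -0.76. For the CRABP2 vector over the empty vector in 8505C it was -0.35 (-0.48 to -0.23). Such intervals cover counting error only, and they compare libraries, not conditions. NKX2-1 thus had the lower level in the library with less CRABP2 in FTC-133, and in the library with more CRABP2 in 8505C. Set against a floor of 3 reads per library, the BHT-101 zeros put NKX2-1 at least 292-fold higher in FTC-133 and at least 309-fold higher in 8505C.

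The RefSeq promoter windows of NKX2-1 (GRCh38.p14, 250 bases before to 50 after a start, minus strand, 5′ to 3′) are shown because, among genes of the set at 1 FPKM or more, this one had the largest single difference between lines (FTC-133 minus BHT-101) and within a line (FTC-133) on log2(FPKM + 1). Window A is chr14:36519507-36519806 and window B is chr14:36520183-36520482, and both lie inside the antisense gene NKX2-1-AS1. Capitals mark the match to TGACG, the core of the element bound by cAMP-responsive factors.
NKX2-1 window A: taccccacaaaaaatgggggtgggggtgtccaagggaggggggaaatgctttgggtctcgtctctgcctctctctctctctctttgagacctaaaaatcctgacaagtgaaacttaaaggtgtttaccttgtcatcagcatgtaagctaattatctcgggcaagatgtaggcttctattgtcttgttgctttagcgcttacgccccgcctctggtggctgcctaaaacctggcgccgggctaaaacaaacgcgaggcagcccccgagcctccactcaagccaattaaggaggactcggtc
NKX2-1 window B: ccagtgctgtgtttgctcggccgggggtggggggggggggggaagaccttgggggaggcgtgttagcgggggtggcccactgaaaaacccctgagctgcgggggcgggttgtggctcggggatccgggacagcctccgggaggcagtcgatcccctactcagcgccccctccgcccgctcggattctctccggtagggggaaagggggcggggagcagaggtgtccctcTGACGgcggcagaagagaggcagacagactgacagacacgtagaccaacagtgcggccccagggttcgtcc
Window A held none of the motifs searched, and window B held 1 TGACG.

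The antisense gene NKX2-1-AS1 (chromosome 14, 36519278 to 36523016, plus strand) shares 402 of the 3165 exonic bases of NKX2-1, or 12.7%. The sources used here do not give the strand setting of the counting, and reads of the overlap cannot be told apart. NKX2-1-AS1 was 0.187 FPKM (9 reads) in FTC-133 siCRABP2 and 1.32 FPKM (58 reads) in FTC-133 siControl. 8505C had 0.536 FPKM (21 reads) of it with the CRABP2 vector and 1.38 FPKM (56 reads) with the empty vector. BHT-101 had no read of it. The log2 read ratios were -2.82 (-4.02 to -1.80) in FTC-133 and -1.37 (-2.16 to -0.62) in 8505C, so the antisense gene differed in the same direction as NKX2-1 in both lines.

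SFTA3, a surfactant-associated gene next to NKX2-1 (chromosome 14, 36473288 to 36513829, minus strand), had 1.29 FPKM (109 reads) in FTC-133 siCRABP2 and 3.06 FPKM (236 reads) in FTC-133 siControl. It had 4.60 FPKM (316 reads) with the CRABP2 vector and 7.93 FPKM (563 reads) with the empty vector in 8505C. In BHT-101 it had 1 read with siCRABP2 and 0 with siControl. Its log2 read ratios were -1.25 (-1.59 to -0.91) in FTC-133 and -0.78 (-0.99 to -0.58) in 8505C. A second identifier named SFTA3 (36473207 to 36519521, same strand) had no read in any library. The homeobox gene NKX2-8, farther along the same arm and named here after its values were seen, was 2.54 FPKM (87 reads) in FTC-133 siCRABP2 and 1.98 FPKM (62 reads) in FTC-133 siControl. Its counting interval in FTC-133, -0.13 to 0.85, included no change, so the lower level of the siCRABP2 library was not seen at that gene. A long noncoding RNA gene that spans the locus (ENSG00000283098, 36320753 to 36656163, plus strand) differed between lines the other way from NKX2-1. It had 128 reads in BHT-101 siCRABP2 and 125 in BHT-101 siControl, and 2 to 6 reads in each library of FTC-133 and 8505C.

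**Figure D2:**
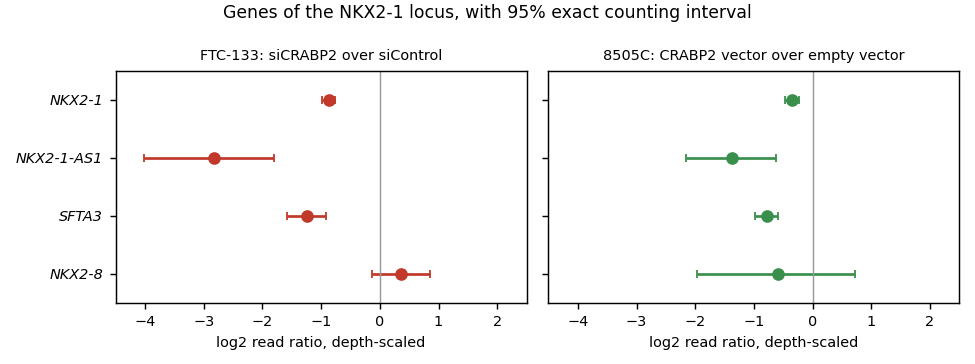
Depth-scaled log2 read ratio of NKX2-1, NKX2-1-AS1, SFTA3 and NKX2-8, with 95% exact counting intervals, for siCRABP2 over siControl in FTC-133 (left) and the CRABP2 vector over the empty vector in 8505C (right). NKX2-1, NKX2-1-AS1 and SFTA3 lie below 0 in both panels, between -0.87 and -2.82 for FTC-133 and between -0.35 and -1.37 for 8505C.

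PAX8 (ENSG00000125618, chromosome 2, 113215997 to 113278950, minus strand), the paired box factor of thyroid, kidney and Mullerian epithelia, was 13.0 FPKM (2613 reads) in FTC-133 siCRABP2 and 12.3 FPKM (2251 reads) in FTC-133 siControl. In BHT-101 it was 0.273 FPKM (45 reads) with siCRABP2 and 0.233 FPKM (48 reads) with siControl. The values for 8505C were 0.141 FPKM (23 reads) with the CRABP2 vector and 0.184 FPKM (31 reads) with the empty vector. FTC-133 stood far above both anaplastic lines. The BHT-101 values lay just above those of 8505C, each from under 50 reads a library. Knockdown in FTC-133 left PAX8 at a log2 read ratio of 0.08 (0.002 to 0.17), while NKX2-1 in the same libraries was at -0.87.

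The PAX8 promoter window (RefSeq, GRCh38.p14, chr2:113278872-113279171, minus strand) is shown because its gene separated the lines. It held none of the motifs searched, so it has no capitals.
PAX8: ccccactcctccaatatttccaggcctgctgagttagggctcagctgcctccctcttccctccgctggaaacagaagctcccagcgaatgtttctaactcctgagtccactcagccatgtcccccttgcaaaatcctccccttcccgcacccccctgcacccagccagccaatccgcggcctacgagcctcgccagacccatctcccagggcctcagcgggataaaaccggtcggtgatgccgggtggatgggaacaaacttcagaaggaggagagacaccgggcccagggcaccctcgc
The antisense gene PAX8-AS1 overlaps 685 of 7400 exonic bases of PAX8 (9.26%) and was at 0.209 FPKM (98 reads) in FTC-133 siCRABP2 and 0.326 FPKM (140 reads) in FTC-133 siControl, far under PAX8 itself in that line. In 8505C, PAX8-AS1 was 0.288 FPKM with the CRABP2 vector and 0.281 FPKM with the empty vector, above PAX8 there.

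FOXE1 (ENSG00000178919, chromosome 9, 97853254 to 97856715, plus strand), a forkhead factor of the thyroid, was close to the detection limit. It was 0.191 FPKM (18 reads) in FTC-133 siCRABP2 and 0.186 FPKM (16 reads) in FTC-133 siControl. BHT-101 had 2 reads with siCRABP2 and 0 with siControl, and 8505C had 4 reads with each vector. No difference within a line was detectable at this depth. In FTC-133 the interval of the log2 read ratio ran from -1.02 to 1.11.

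HHEX (ENSG00000152804, chromosome 10, 92689951 to 92695646, plus strand), a homeobox factor also used in liver and endothelium, was above 1 FPKM in all 6 libraries. It was 1.98 FPKM (136 reads) in FTC-133 siCRABP2 and 1.45 FPKM (91 reads) in FTC-133 siControl. BHT-101 had 2.82 FPKM (159 reads) with siCRABP2 and 2.496 FPKM (176 reads) with siControl. The highest levels were in 8505C, with 6.68 FPKM (372 reads) for the CRABP2 vector and 7.57 FPKM (436 reads) for the empty vector. The lines did not overlap, in the order FTC-133, BHT-101, 8505C from low to high. The log2 read ratio was 0.45 (0.06 to 0.85) in FTC-133, and the intervals of BHT-101 (-0.14 to 0.49) and 8505C (-0.38 to 0.02) included no change.

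GLIS3 (ENSG00000107249, chromosome 9, 3824127 to 4348392, minus strand) was 2.08 FPKM (678 reads) in FTC-133 siCRABP2 and 2.66 FPKM (791 reads) in FTC-133 siControl. In BHT-101 it was 0.927 FPKM (248 reads) with siCRABP2 and 0.773 FPKM (259 reads) with siControl. The 8505C libraries had 0.707 FPKM (187 reads) with the CRABP2 vector and 0.639 FPKM (175 reads) with the empty vector. Both FTC-133 libraries lay above the other 4. The log2 read ratio of siCRABP2 over siControl was -0.35 (-0.50 to -0.20) in FTC-133 and 0.26 (0.004 to 0.52) in BHT-101, which are opposite in sign, and 0.14 (-0.16 to 0.45) for the vector in 8505C.

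TG (ENSG00000042832, chromosome 8), which encodes the hormone precursor, had 2 reads in FTC-133 siCRABP2 and 10 in FTC-133 siControl. It had no read in either BHT-101 library, 4 reads with the CRABP2 vector and 12 with the empty vector in 8505C. The highest of these levels, in the 8505C empty vector library, was 0.047 FPKM. For BHT-101, 0 reads allow a level of up to 0.012 FPKM with siCRABP2 and 0.00964 FPKM with siControl, from a limit of 3 reads.

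TSHR (ENSG00000165409, chromosome 14, 80954989 to 81146302, plus strand), the receptor through which thyrotropin drives follicular cells, was detected in FTC-133 only. It was 0.219 FPKM (59 reads) with siCRABP2 and 0.451 FPKM (111 reads) with siControl, and it had no read in the other 4 libraries. The floor of 3 reads per library put FTC-133 at least 16.2-fold higher than BHT-101 and at least 16.0-fold higher than 8505C. The log2 read ratio of siCRABP2 over siControl was -1.04 (-1.52 to -0.57), at a level under 1 FPKM in both libraries.

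The TSHR promoter window (RefSeq, GRCh38.p14, chr14:80955371-80955670, plus strand) is shown as the 1 window of the set with AGGTCA, the hexamer bound by nuclear receptors, which stands in capitals.
TSHR: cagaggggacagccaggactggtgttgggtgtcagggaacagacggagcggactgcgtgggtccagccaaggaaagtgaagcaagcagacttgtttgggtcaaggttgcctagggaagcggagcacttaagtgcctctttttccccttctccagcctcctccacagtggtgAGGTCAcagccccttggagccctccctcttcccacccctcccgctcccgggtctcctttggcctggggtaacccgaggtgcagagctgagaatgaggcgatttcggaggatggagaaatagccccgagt
Windows of 300 bases were found for 8 of the 9 genes, 11 windows in all. Exact matches were counted on both strands. AGGTCA was in 1 of the 11 windows and in 13.8% of all 35116 windows of that length. TGACG was in 4 of 11, those of FOXE1, GLIS3, NKX2-1 and THRB with 1 each, and in 24.6% of all windows. TATAAA was in 1 window each of GLIS3 and THRB and in 11.5% of all windows. Direct repeats of AGGTCA spaced by 1, 2, 4 or 5 bases, which contain AGGTCA by construction, were in none of the 11 windows and in at most 0.023% of all windows. These matches describe the letters of the windows and no more.

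THRA (ENSG00000126351, chromosome 17, 40058290 to 40093867, plus strand), the thyroid hormone receptor expressed in most tissues, had the narrowest range, in fold, of the genes seen in every library. It was 6.56 FPKM (1241 reads) in FTC-133 siCRABP2 and 7.46 FPKM (1288 reads) in FTC-133 siControl. Both BHT-101 libraries stood at 3.49 FPKM, from 542 reads with siCRABP2 and 679 with siControl. Levels in 8505C were 5.46 FPKM (839 reads) with the CRABP2 vector and 7.01 FPKM (1115 reads) with the empty vector. FTC-133 and 8505C overlapped, and BHT-101 lay below both. The log2 read ratio was -0.18 (-0.30 to -0.07) in FTC-133, -0.002 (-0.17 to 0.16) in BHT-101 and -0.36 (-0.49 to -0.23) in 8505C. THRA shares 263 of 6959 exonic bases (3.78%) with NR1D1, a clock repressor gene on the other strand.

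THRB (ENSG00000151090, chromosome 3, 24117153 to 24495756, minus strand), the receptor of liver and pituitary feedback, was 0.828 FPKM (247 reads) in FTC-133 siCRABP2 and 1.08 FPKM (294 reads) in FTC-133 siControl. BHT-101 had 2.06 FPKM (504 reads) with siCRABP2 and 1.77 FPKM (543 reads) with siControl. 8505C had 0.120 FPKM (29 reads) with the CRABP2 vector and 0.052 FPKM (13 reads) with the empty vector. The lines did not overlap, with BHT-101 highest and 8505C lowest. The log2 read ratio was -0.38 (-0.63 to -0.13) in FTC-133, 0.22 (0.04 to 0.39) in BHT-101 and 1.21 (0.22 to 2.27) in 8505C, the last from 42 reads in all.

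**Figure D3:**
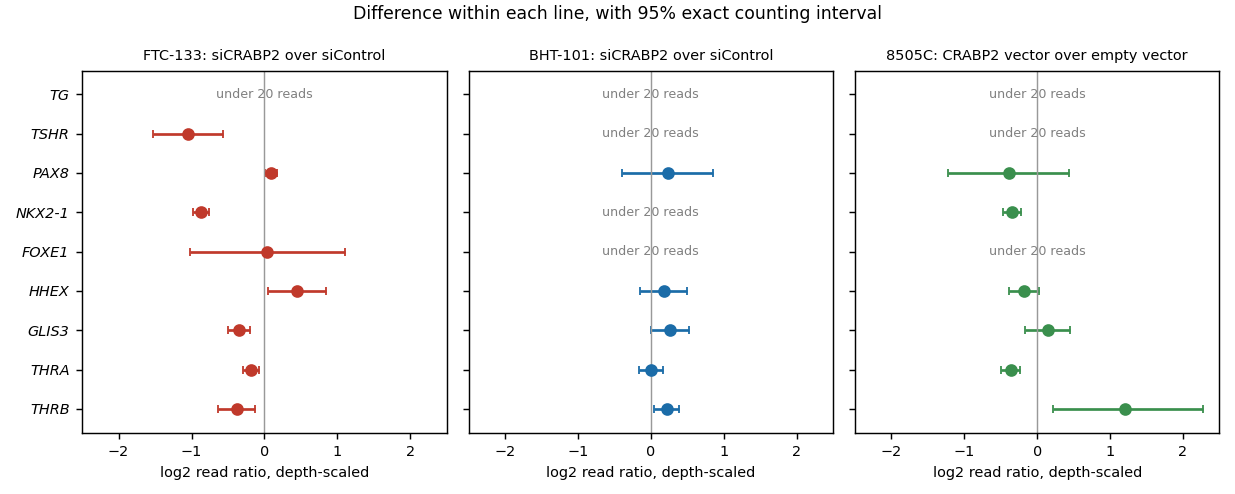
Depth-scaled log2 read ratio of each gene within each line, with 95% exact counting intervals, for genes with 20 or more reads in the 2 libraries together. In FTC-133 NKX2-1 (-0.87) and TSHR (-1.04) lie farthest below 0, in BHT-101 all points lie within 0.3 of 0, and in 8505C THRB has the widest interval (0.22 to 2.27).

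A gene was counted as measured in a line at 1 FPKM or more in 1 or both of its libraries, and as past 2-fold when these differed by 1 or more on log2(FPKM + 1). In FTC-133, 0 of 6 measured genes of the set were past 2-fold, against 4.71% of 12832 measured genes. The counts were 0 of 3 in BHT-101, against 1.13% of 12055, and 0 of 3 in 8505C, against 3.71% of 11731. On this scale NKX2-1 differed by -0.82 in FTC-133 and -0.33 in 8505C. By the counting interval, 6 of 6 excluded no change in FTC-133, where 71.6% of the 12721 measured genes with recovered reads did. With siCRABP2, 2 were higher and 4 lower, against 32.2% and 39.4% of all measured genes. In BHT-101 it was 1 of 3, against 42.9% of all measured genes, and that gene, THRB, was higher with siCRABP2, against 23.7% higher and 19.2% lower. 8505C had 2 of 3, against 65.9%, and both, NKX2-1 and THRA, were lower with the CRABP2 vector, against 35.1% higher and 30.8% lower. In FTC-133 and 8505C most measured genes excluded no change at this depth, and the counts of 3 to 6 genes single out nothing about the set.

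Across lines, limma with the cell line as a block called no gene, CRABP2 itself included. The fits had 1 and 2 residual degrees of freedom, so the absence of calls does not show that the set was unchanged. Over the 4 siRNA libraries 0% of 12953 genes passed an adjusted p of 0.05 (539 at an unadjusted p under 0.05, smallest adjusted p 0.25). The fitted siCRABP2 minus siControl difference of NKX2-1 was -0.41 (SE 0.24, limma adjusted p = 0.870), with FTC-133 alone carrying it, since BHT-101 has no read. HHEX had 0.21 (SE 0.17, limma adjusted p = 0.870), and it was higher with siCRABP2 in both lines. PAX8, GLIS3, THRA and THRB lay between -0.08 and 0.06. Over all 6 libraries, with siCRABP2 and the empty vector as the lower CRABP2 arm minus siControl and the CRABP2 vector as the higher arm, limma called 0% of 11628 genes (372 at an unadjusted p under 0.05, smallest adjusted p 0.467). HHEX was at 0.19, NKX2-1 at -0.16, THRA at 0.05 and THRB at -0.04. Without FTC-133 the NKX2-1 value turned to 0.16, and without FTC-133 or BHT-101 the whole-table count came to 22 or 1 genes, with none of these 4 genes among them.

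The same 6-library limma model compared the lines themselves, with the libraries of a line standing for it. They differ in treatment and may come from shared cultures, so p-values measure the spread between these libraries, which may be technical. Fits with a library left out also dropped the CRABP2 arm term, so they differ from this model in more than that library. With at least 1 FPKM in 3 or more libraries, 4 genes of the set were tested: NKX2-1, HHEX, THRA and THRB. PAX8 and GLIS3 entered only with a filter of 2 or more libraries, added after the data were seen. They pass it through FTC-133, where they are high, so their calls are read one by one and not counted as support. The filter of 3 or more libraries acts in a like way on 2 of the 4 genes. NKX2-1 passes it through FTC-133 and 8505C, and THRB through BHT-101 and FTC-133 siControl. The counts of called genes that follow are therefore descriptions and not support either.

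In FTC-133 minus BHT-101, limma called 3 of the 4 genes, 2 higher and 1 lower, where it called 41.9% of 11628 genes, 26.7% higher and 15.2% lower. NKX2-1 was higher in FTC-133 by 4.15 on log2(FPKM + 1) (SE 0.27, limma adjusted p = 7.9e-05), a value that depends on the added 1 because BHT-101 is at 0. THRA was higher by 0.83 (SE 0.19, limma adjusted p = 0.0114). THRB was lower, with -0.58 (SE 0.19, limma adjusted p = 0.0447), and lost its call under 6 alternatives. HHEX did not pass, with -0.43 (SE 0.17, limma adjusted p = 0.0768). With the wider filter, which called 46% of 13736 genes, PAX8 was higher in FTC-133 by 3.45 (SE 0.15, limma adjusted p = 4.8e-05) and GLIS3 by 0.86 (SE 0.16, limma adjusted p = 0.00758). Over all genes the split was 3105 higher and 1763 lower, against 2358 and 2130 after quantile normalization, and the median of all genes stood at 0.17, against 0.04 after quantile normalization and 0.03 after upper-quartile scaling. Under these scalings THRA came to 0.71 and 0.69, both called. The THRA call was lost without BHT-101 siCRABP2 (limma adjusted p = 0.063) or BHT-101 siControl (0.0644), and the THRB call without either of these (0.169 and 0.0998) or without FTC-133 siCRABP2 (0.0609).

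In FTC-133 minus 8505C, limma called 2 of the 4 genes, 1 higher and 1 lower, where it called 58% of 11628, 33.7% higher and 24.2% lower. HHEX was lower in FTC-133, with -1.58 (SE 0.17, limma adjusted p = 0.000298). THRB was higher, with 0.85 (SE 0.19, limma adjusted p = 0.00745). NKX2-1, with 0.17 (SE 0.27, limma adjusted p = 0.620), and THRA, with 0.15 (SE 0.19, limma adjusted p = 0.507), did not pass, which does not show that the lines are alike in them. Without the FTC-133 siCRABP2 library NKX2-1 came to 0.58 (limma adjusted p = 0.0418), and without the FTC-133 siControl library to -0.24. Under the wider filter, which called 58% of 13736, PAX8 was higher in FTC-133 by 3.56 (SE 0.15, limma adjusted p = 6.5e-05) and GLIS3 by 1.01 (SE 0.16, limma adjusted p = 0.00307). Over all genes the split was 3923 higher and 2817 lower, against 3206 and 3599 after quantile normalization, which brought the median of all genes to -0.07 from 0.12.

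In BHT-101 minus 8505C, limma called 4 of the 4 genes, 1 higher and 3 lower, where it called 61.2% of 11628, 30.7% higher and 30.5% lower. NKX2-1 was lower in BHT-101, with -3.98 (SE 0.27, limma adjusted p = 5.7e-05). HHEX was lower, with -1.15 (SE 0.17, limma adjusted p = 0.0011), and THRA was lower, with -0.68 (SE 0.19, limma adjusted p = 0.0161). THRB was higher in BHT-101 by 1.42 (SE 0.19, limma adjusted p = 0.000705). PAX8 (0.11, limma adjusted p = 0.576) and GLIS3 (0.14, limma adjusted p = 0.483) did not pass under the wider filter, which called 60.3% of 13736. The THRA call was lost without either BHT-101 library, at limma adjusted p = 0.0709 and 0.0719.

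**Figure D4:**
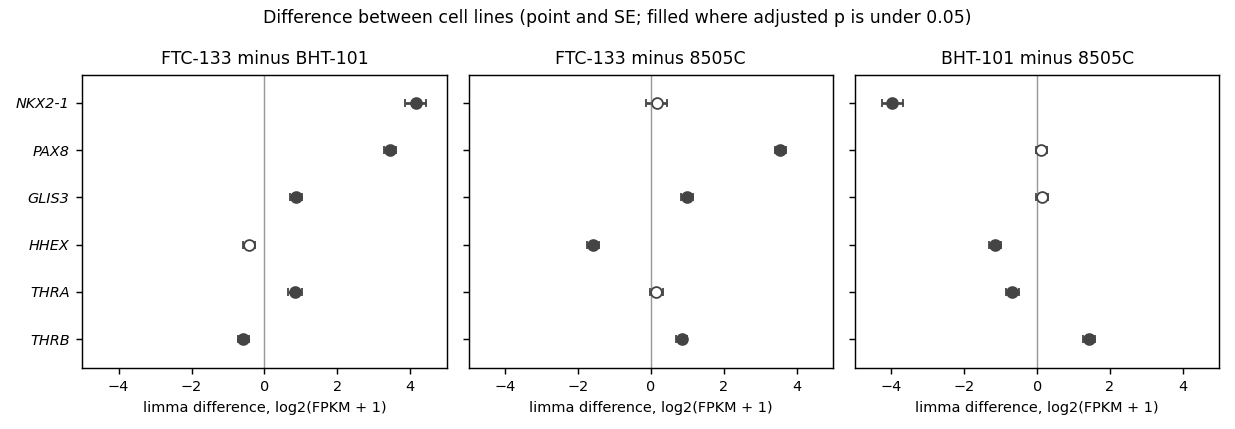
Fitted differences between lines on log2(FPKM + 1), with standard errors, for the 6 genes that pass the filter of 1 FPKM in 2 or more of 6 libraries; filled points have a limma adjusted p under 0.05. NKX2-1 stands at 4.15 and -3.98 in the contrasts with BHT-101 and at 0.17 between FTC-133 and 8505C, while PAX8 stands at 3.45 and 3.56 in the contrasts with FTC-133 and at 0.11 between the anaplastic lines.

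The genes of hormone synthesis around the set were nearly silent. Of 14 on a list that holds the iodide transporter SLC5A5, the oxidases DUOX1 and DUOX2 and the deiodinating enzyme IYD, 1 reached 1 FPKM in any library. That gene was TFF3, a secreted trefoil peptide of mucous epithelia and well differentiated thyroid, and not itself a gene of hormone synthesis. TFF3 was at 64.2 FPKM (1676 reads) in BHT-101 siCRABP2 and 68.3 FPKM (2229 reads) in BHT-101 siControl. In FTC-133 it had 2 reads with siCRABP2 and 0 with siControl, and 8505C had none. SLC5A5 had at most 1 read in a library. SLC26A4, the iodide and chloride exchanger pendrin, was 0.228 FPKM (36 reads) in FTC-133 siCRABP2 and 0.674 FPKM (97 reads) in FTC-133 siControl, a log2 read ratio of -1.56 (-2.16 to -0.996) at a level under 1 FPKM, as for TSHR. In 8505C SLC26A4 had 48 reads with the CRABP2 vector and 42 with the empty vector. TG and SLC5A5, defining products of a differentiated follicular cell, were therefore at or near 0 in all 3 lines.

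Among 9 genes of deiodination and hormone transport, 4 reached 1 FPKM somewhere. DIO1, which converts the prohormone to active hormone, was seen chiefly in BHT-101, at 3.20 FPKM (163 reads) with siCRABP2 and 4.06 FPKM (259 reads) with siControl. DIO2, the other activating deiodinase, was 1.75 FPKM (293 reads) in BHT-101 siCRABP2 and 1.499 FPKM (314 reads) in BHT-101 siControl, and between 0.392 and 0.442 FPKM in the other lines.

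SLC7A5, the light chain of an amino acid transporter that also carries thyroid hormones, was the gene of this list that passed 2-fold within a line. It was 22.0 FPKM (2852 reads) in FTC-133 siCRABP2 and 7.76 FPKM (918 reads) in FTC-133 siControl, a difference of 1.39 on log2(FPKM + 1). 8505C stood at 53.4 FPKM (5623 reads) with the CRABP2 vector and 122.9 FPKM (13380 reads) with the empty vector, a difference of -1.19. BHT-101 had 59.9 FPKM (6380 reads) with siCRABP2 and 76.3 FPKM (10169 reads) with siControl, a difference of -0.34. Its heavy chain gene SLC3A2 differed in the same directions, at 28.3 FPKM with siCRABP2 and 20.1 FPKM with siControl in FTC-133, and 55.2 FPKM with the CRABP2 vector and 69.3 FPKM with the empty vector in 8505C. In BHT-101 SLC3A2 was 42.2 FPKM with siCRABP2 and 52.9 FPKM with siControl. Over the 4 siRNA libraries the SLC7A5 difference was 0.52 (SE 0.38, limma adjusted p = 0.870).

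**Figure D5:**
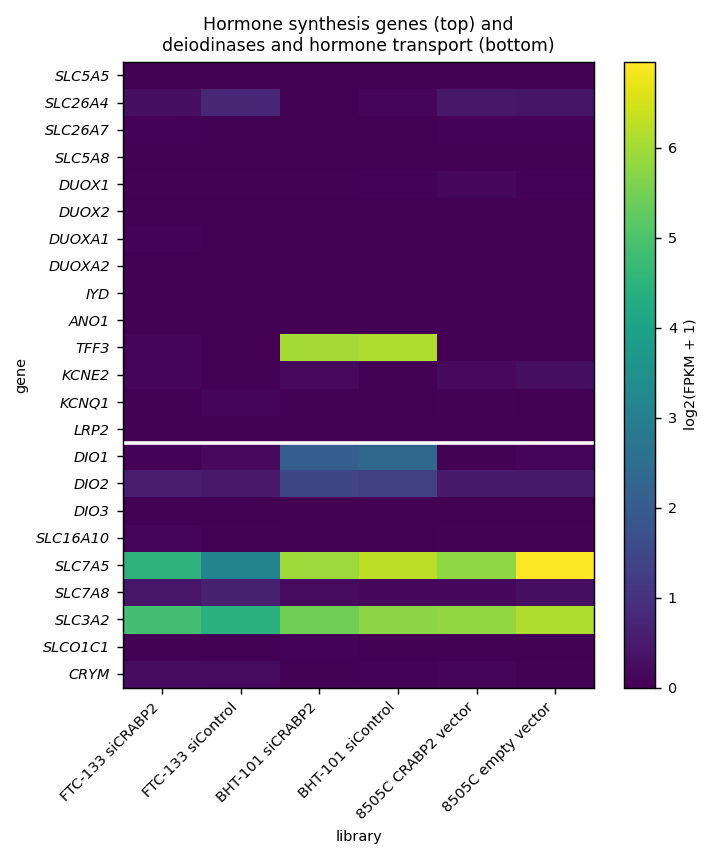
log2(FPKM + 1) of the 14 genes of the hormone synthesis list, which also holds TFF3 (above the white line), and 9 genes of deiodination and hormone transport (below it) in the 6 libraries. Nearly all genes of the upper block are at or near 0, TFF3 is bright in BHT-101 alone, and SLC7A5 and SLC3A2 are the highest of the lower block in every library, with SLC7A5 darker in FTC-133 (22.0 and 7.76 FPKM).

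Downstream of the thyrotropin receptor, 13 of 14 signalling genes reached 1 FPKM, all but the phosphodiesterase gene PDE8B. GNAS, the stimulatory G protein, PRKAR1A, the regulatory subunit of protein kinase A, and GNA11 had the highest levels. PRKAR1A was 20.7 FPKM in FTC-133 siCRABP2 and 27.1 FPKM in FTC-133 siControl, 23.6 and 24.0 FPKM in BHT-101 siCRABP2 and siControl, and 58.4 and 83.0 FPKM with the CRABP2 and the empty vector in 8505C. None of 12, 12 and 13 measured genes was past 2-fold in FTC-133, BHT-101 and 8505C. Transcripts of the pathway below the receptor were therefore present in lines that had no TSHR read.

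Of 12 partners of the hormone receptors, the retinoid X receptors and the coactivators and corepressors, 11 reached 1 FPKM, with HDAC3, RXRB and TBL1XR1 highest. Below 0 lay 9 of 11 measured partners in FTC-133 (median -0.38), 2 of 10 in BHT-101 (median 0.04) and 9 of 10 in 8505C (median -0.30). Over all measured genes 46.1%, 53.3% and 52.8% lay above 0 in these lines, and their medians were -0.04, 0.01 and 0.02. None of the partners was past 2-fold. The coactivator NCOA2 was 2.20 FPKM (599 reads) in FTC-133 siCRABP2 and 4.30 FPKM (1068 reads) in FTC-133 siControl, and 5.04 FPKM (1114 reads) with the CRABP2 vector and 8.06 FPKM (1844 reads) with the empty vector in 8505C. RXRA was 2.97 FPKM in FTC-133 siCRABP2 and 4.65 FPKM in FTC-133 siControl, and 5.51 and 7.64 FPKM with the CRABP2 and the empty vector in 8505C. NKX2-1, THRA, NCOA2 and RXRA thus shared a lower level in the siCRABP2 library of FTC-133 and in the CRABP2 vector library of 8505C. These libraries differ in the direction of CRABP2, and the share of all genes with this pattern was not counted. Not every partner had it. HDAC3 was 17.5 and 16.0 FPKM with the CRABP2 and the empty vector in 8505C. In FTC-133 siCRABP2 and siControl, RXRB was 17.2 and 16.9 FPKM and NCOA3 7.67 and 6.47 FPKM.

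Of 11 genes known to respond to thyroid hormone, 6 reached 1 FPKM. In 8505C 6 of 6 lay below 0 (median -0.32), in FTC-133 3 of 6 (median 0.17) and in BHT-101 5 of 6 (median -0.05). Over all measured genes 52.8% lay above 0 in 8505C, 46.1% in FTC-133 and 53.3% in BHT-101. A shift of these 6 genes as a set was not tested. CPT1A, the gate of mitochondrial fatty acid entry, was past 2-fold in 8505C, at 2.42 FPKM (351 reads) with the CRABP2 vector and 6.88 FPKM (1033 reads) with the empty vector, a difference of -1.20. The proprotein convertase gene FURIN, the calcium pump gene ATP2A2 and the NF-kB cofactor gene BCL3 had the highest levels. BCL3 was 23.9 FPKM (2012 reads) in FTC-133 siCRABP2 and 12.5 FPKM (961 reads) in FTC-133 siControl, and 25.0 FPKM in BHT-101 siCRABP2 and 25.1 FPKM in BHT-101 siControl. No gene of these lists was called by limma in the 4-library or the 6-library fit.

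Relatives of the set were scarce or modest. Of 13 relatives, 5 reached 1 FPKM, and the retinoic acid receptor genes RARA, RARB and RARG led. RARB, which retinoic acid induces in many cells, was 6.07 FPKM (610 reads) in FTC-133 siCRABP2 and 7.06 FPKM (648 reads) in FTC-133 siControl, 1.73 FPKM (143 reads) in BHT-101 siCRABP2 and 1.35 FPKM (140 reads) in BHT-101 siControl. In 8505C RARB was 8.41 FPKM (687 reads) with the CRABP2 vector and 4.92 FPKM (416 reads) with the empty vector, a log2 read ratio of 0.77 (0.60 to 0.95).

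Markers of other cells were checked because NKX2-1 also marks lung, PAX8 kidney and Mullerian epithelia, and C cells share the gland. Of 7 lung markers 1 reached 1 FPKM, the NKX2-1 neighbour SFTA3, and the surfactant gene SFTPB had 47 and 77 reads with the CRABP2 and the empty vector in 8505C and none in the other lines. Summed lung markers came to 1.34 and 3.16 FPKM in FTC-133 siCRABP2 and siControl and 5.27 and 8.88 FPKM with the CRABP2 and the empty vector in 8505C, against 0.052 and 0.050 FPKM in BHT-101 siCRABP2 and siControl. Most of the sum in FTC-133 and 8505C was SFTA3, and the part of these markers in the NKX2-1 difference was not tested. Of 5 kidney and Mullerian markers 2 reached 1 FPKM. LHX1 was 2.18 FPKM (289 reads) in FTC-133 siCRABP2 and 11.3 FPKM (1374 reads) in FTC-133 siControl, a difference of -1.96 past 2-fold, and 11.1 and 15.4 FPKM with the CRABP2 and the empty vector in 8505C. WT1 was 1.71 and 1.84 FPKM in BHT-101 siCRABP2 and siControl. The summed kidney and Mullerian list ran from 2.32 to 15.4 FPKM over the 6 libraries, and its part in the NKX2-1 difference was not tested.

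Of 7 C cell markers 3 reached 1 FPKM. CALCA, the calcitonin gene, was 3.91 FPKM (226 reads) in FTC-133 siCRABP2 and 5.74 FPKM (303 reads) in FTC-133 siControl, with 0 reads in BHT-101 and at most 1 in 8505C. SCG2, a secretory granule protein, was 8.94 FPKM (509 reads) with the CRABP2 vector and 2.67 FPKM (157 reads) with the empty vector in 8505C, a difference of 1.44 past 2-fold. CHGB, the remaining marker of these, went the other way in 8505C. It had 0.519 FPKM (51 reads) with the CRABP2 vector and 1.54 FPKM (156 reads) with the empty vector. In FTC-133 siCRABP2 and siControl, SCG2 was 4.57 and 5.27 FPKM (320 and 337 reads). CALCB, under 1 FPKM in all 6 libraries, went the other way from CALCA and SCG2 in FTC-133. There CALCB was 0.813 FPKM (87 reads) with siCRABP2 and 0.082 FPKM (8 reads) with siControl. Parathyroid PTH and CASR were at 0 in all 6 libraries. Of 6 fibroblast markers 4 reached 1 FPKM. LUM was 75.5 and 80.2 FPKM in BHT-101 siCRABP2 and siControl, and THY1 was 56.5 and 79.6 FPKM in FTC-133 siCRABP2 and siControl and 0 in the other lines. Summed fibroblast markers were 73.1 and 105.7 FPKM in FTC-133 siCRABP2 and siControl, 78.1 and 82.2 FPKM in BHT-101 siCRABP2 and siControl, and 0.421 and 1.05 FPKM with the CRABP2 and the empty vector in 8505C. Most of the sum was THY1 in FTC-133 and LUM in BHT-101, so the sums of these lines rest on different genes. Of 9 blood and vessel markers 4 reached 1 FPKM, led by CD14 at 12.9 and 16.4 FPKM with the CRABP2 and the empty vector in 8505C. The part of these cell type markers in the line contrasts was not tested.

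The genes most like each member were taken by Pearson correlation of log2(FPKM + 1) over the 6 libraries, among protein-coding genes with at least 1 FPKM in 3 or more libraries. With 3 lines and paired libraries, such values mostly describe the lines, and libraries of a line share its cells. NKX2-1 was most like COL8A1 (r = 0.998), a short-chain collagen gene that was also at 0 in BHT-101, at 12.6 and 16.9 FPKM in FTC-133 siCRABP2 and siControl and 11.8 and 15.8 FPKM with the CRABP2 and the empty vector in 8505C. RFXAP and DVL3 followed, both at 0.9963. PAX8 was most like INAFM1 (r = 0.9993), PDHA1 and WHRN (both 0.9986), and GLIS3 most like DHRS11 (0.9988), LHFPL2 and PDE4DIP. HHEX was most like SLPI (0.9988), a secreted protease inhibitor at 62.2 and 99.4 FPKM with the CRABP2 and the empty vector in 8505C and under 4 FPKM elsewhere, ahead of PAPPA and CFLAR. THRA was most like FUBP3 (0.9989), SLC44A2 and PRRC2B, and THRB most like JAGN1 (0.9977), MAP10 and GPRC5C.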

How the data were processed

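Total RNA of 6 cultured cell line libraries was sequenced, 1 per group, grouped by title. The deposited values are FPKM, made by the authors. FastQC, Trimmomatic 0.38 and featureCounts 2.0.0 on GRCh38 are named in the submitters' processing notes. Not given in the sources used here are the aligner, the annotation release and the strand setting. Positions and names come from GENCODE release 29, which named 58611 of 58884 identifiers.

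FPKM times exon length fell on whole reads for 74.9% of the 33848 genes above 0 at release 29 lengths and for a further 23.9% at a length found by search (tolerance 0.001 reads). These reads gave the totals and the 95% exact (Clopper-Pearson) intervals of read ratios. Without molecular tags, reads are not independent molecules. Values were analysed as log2(FPKM + 1), a scale that understates differences of low genes, with limma 3.58.1 (R 4.3.3), a variance trend and Benjamini-Hochberg adjustment over all genes tested. Libraries were paired by cell line. The 4-library fit kept genes at 1 FPKM in 2 or more libraries and the 6-library fits in 3 or more, with 1 and 2 residual degrees of freedom. The script was tested on simulated data.

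Named genes were the 9 genes, CRABP2, the 3 most correlated genes of each gene at 1 FPKM in 2 or more libraries, and list genes past 2-fold or among the 3 highest of their list; other list genes were named with their values known. The genes and the 14 lists were chosen with earlier results of these data known. Some genes of these pathways are not reported here. Promoter sequences are from RefSeq. Alternatives were other pseudocounts, scalings, filters, variance models and left-out libraries.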

Additional observations from a re-analysis of the deposited data

Results flagged for a closer look

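In 7 of the 128 genes of the set and its lists, CRABP2 included, the libraries with siCRABP2 differed from siControl in opposite directions in FTC-133 and BHT-101, with counting intervals that excluded no change in both. Over all measured genes the interval excluded no change in 71.6% in FTC-133 (32.2% higher, 39.4% lower). In BHT-101 it did so in 42.9% (23.7% higher, 19.2% lower). The share of all genes with opposite directions was not counted, so the 7 are not read as particular to these lists. The log2 read ratio of GLIS3 was -0.35 in FTC-133 and 0.26 in BHT-101. That of THRB was -0.38 in FTC-133 and 0.22 in BHT-101. That of SLC7A5 was 1.504 in FTC-133 and -0.35 in BHT-101, and that of SLC3A2, its heavy chain partner, 0.49 in FTC-133 and -0.33 in BHT-101. For TBL1XR1, a corepressor subunit, it was -0.47 in FTC-133 and 0.16 in BHT-101. For RARB it was -0.22 in FTC-133 and 0.35 in BHT-101. NR1D1, which shares exon bases with THRA on the other strand, had 0.46 in FTC-133 and -0.41 in BHT-101. With 1 library per condition, the difference between the lines was not tested. The knockdown also left unequal amounts of CRABP2, 0.170 FPKM in FTC-133 and 11.4 FPKM in BHT-101, and the part of this in the differences was not tested. No group had enough libraries for a check of single libraries that stand apart.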

How the results depend on the processing

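The sizes of within-line differences of genes under 1 FPKM, such as TSHR in FTC-133 (-0.25 with a pseudocount of 1, -0.79 with 0.1), depend on the pseudocount. Over the alternatives run, 233 tested values for single genes of the set kept their direction and side of the threshold, 11 lost a call, 4 gained one and 6 turned. Of 12 values from the siControl and empty vector libraries alone, which have no test, 10 stayed within 1 SE and 2 moved by more, NKX2-1 in FTC-133 minus BHT-101 (4.56) and HHEX in FTC-133 minus 8505C (-1.80). Those that turned were THRB over the 4 siRNA libraries after quantile normalization (0.011), NKX2-1 (0.16) and THRB (0.026) over the 6 libraries without FTC-133, THRA over the 6 libraries without 8505C (-0.081), and, in FTC-133 minus 8505C, NKX2-1 without FTC-133 siControl (-0.24) and THRA without the 8505C CRABP2 vector library (-0.0031). None of these passed the threshold before or after. With a line or library left out, these ran from -0.41 to 0.16 (NKX2-1), -0.14 to 0.026 (THRB) and -0.081 to 0.15 (THRA) over the 6 libraries, and in FTC-133 minus 8505C from -0.24 to 0.58 (NKX2-1, limma adjusted p = 0.0418 at 0.58) and from -0.0031 to 0.31 (THRA). Leaving out a line gave 0 to 22 genes called over the 6 libraries, 22 without FTC-133 and 1 without BHT-101. Line contrasts with a library left out also lacked the CRABP2 arm term. Without that term but with all 6 libraries, 5155 genes were called in FTC-133 minus BHT-101, against 4868 with it. In FTC-133 minus BHT-101, leaving out a library gave 2308 to 5311 genes called, with 2410 without BHT-101 siCRABP2 and 2308 without BHT-101 siControl, and 1 to 3 of the set. Without a filter on low values 6 genes of the set were called in FTC-133 minus BHT-101 and 6 in FTC-133 minus 8505C, and with 1 FPKM in 2 or more libraries 5 and 4, since more genes were then tested. THRB in FTC-133 minus BHT-101 lost its call with pseudocounts of 0.1 (limma adjusted p = 0.122) and 0.5 (0.0593), without a filter (0.113) and without BHT-101 siCRABP2 (0.169), BHT-101 siControl (0.0998) or FTC-133 siCRABP2 (0.0609). THRA in that contrast lost it without either BHT-101 library (0.063 and 0.0644), and in BHT-101 minus 8505C also without a filter (0.0579). HHEX in FTC-133 minus BHT-101 gained one after quantile normalization (0.0303), upper-quartile scaling (0.0384) and without FTC-133 siCRABP2 (0.0365). Leaving the replicate block (the cell line) out of the CRABP2 fits left 0 genes called, with 22 and 4 at an unadjusted p under 0.05. Counts of genes in the siControl and empty vector libraries alone were not run, as they allow no test. Depth limits TG, FOXE1, the 8505C values of THRB and the BHT-101 and 8505C values of PAX8, which rest on under 50 reads a library.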
